A study of Mus musculus with 44 samples.

Results

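Transcripts of 8 genes that handle vitamin E were measured in mouse liver, to compare a vitamin E-enriched with a control diet at rest and directly after a treadmill run. The genes are Scarb1 and Lrp1 (uptake), Afm and Pltp (carriage and exchange in plasma), Ttpa and Sec14l2 (transfer inside the cell), Cyp4f14 (breakdown) and Abcb4 (export into bile). They were taken from a list of names, by function, and each was read from the probe set that the array annotation gives to that symbol alone. Each had 1 such probe set, so 8 of the 22180 genes with such a probe set entered, and all 8 passed the filter on low values that left 10921 genes.

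Livers came from 44 male C57BL/6N mice aged 11 to 12 weeks, each hybridised to its own Affymetrix Mouse Gene 2.1 ST array. The control diet held 149 IU of vitamin E per kg and 0 mg/kg vitamin C. The enriched diet, called the vitamin E diet here, held 2000 IU/kg as alpha-tocopheryl acetate, and 100 mg/kg vitamin C. Both were purified diets fed for 4 weeks, so a diet difference is that of both vitamins together. Sedentary mice stayed in their cages next to the treadmill, without food for the last 60 min, and exercised mice ran for 60 min at 13 m/min on a slope of 14 degrees. There were 10 sedentary and 12 exercised mice on each diet. All values below are log2 expression values normalized by RMA, and a difference of 1 is a 2-fold change.

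Vitamin E reaches the liver in lipoproteins, which hepatocytes take up through the scavenger receptor SR-BI (Scarb1) and through receptors of the LDL receptor family such as Lrp1. Inside the hepatocyte the alpha-tocopherol transfer protein (Ttpa) selects alpha-tocopherol for return to the blood, and inherited loss of this protein causes vitamin E deficiency. Surplus and other forms of the vitamin are hydroxylated on the side chain, by Cyp4f14 in the mouse, and shortened to excreted products.

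The 44 arrays had medians between 1.53 and 1.669, and the number of mice, not a read depth, limits the precision of each mean. All 10 hepatocyte markers of a fixed list passed the filter, with a mean level of 10.8 in the sedentary control mice, and Alb (albumin) had group means between 11.67 and 11.68, whereas none of the 2 erythroid markers with a probe set of their own passed. Exercised control mice 3 and 6 stood apart from their group. Their mean over 17 acute-phase genes was 11.2 and 10.9, against 9.15 ± 0.26 (SD) in the other 10, and the means of the 2 neutrophil markers that passed the filter (of 8 listed) were 6.30 and 7.14, against 1.49 ± 0.57. The main differences below are given with and without them.

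With the vitamin E diet, Pltp was 1.47-fold higher in sedentary mice and 1.42-fold higher in exercised mice. In exercised mice Cyp4f14 was also 1.2-fold higher, and Lrp1 was at 0.79 of the control level. None of these differences passed a limma test with Benjamini-Hochberg adjustment over all 18522 probe sets that passed the filter, so they are given as measured differences, each with its unadjusted p. For the other 5 genes the diet differences lay between -0.14 and 0.11 on the log2 scale in either state. At an unadjusted p under 0.05 there was 1 of 8 genes in sedentary mice, where 4.77% of all probe sets were past that threshold, and there were 3 of 8 in exercised mice, where 5.6% were. No probe set of the table passed the adjusted test in either diet comparison, that is 0% in both. The median diet difference of the 8 genes was 0.04 in sedentary and 0.01 in exercised mice, beside 0.02 and -0.02 over all probe sets.

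**Figure D1:**
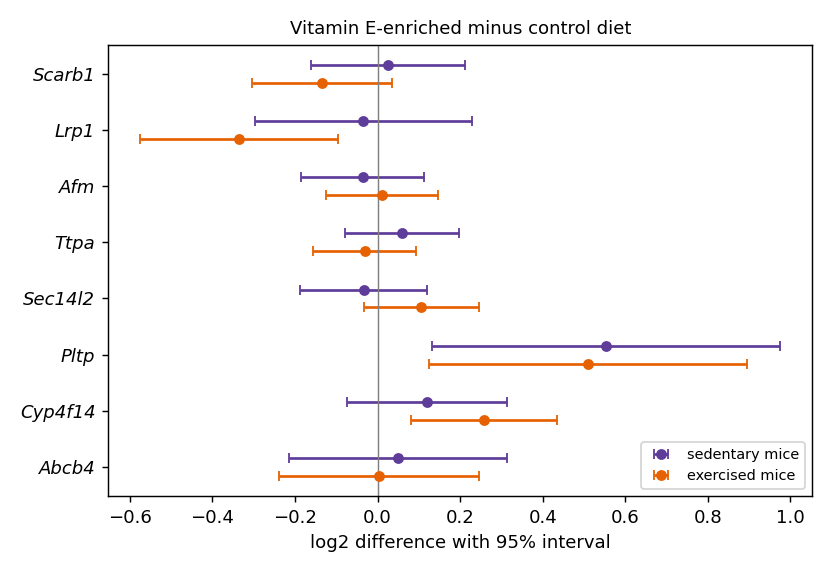
Difference between the vitamin E and the control diet (x axis, log2, positive where higher with vitamin E) for each of the 8 genes, in sedentary and exercised mice. Points are limma estimates and bars their 95% intervals. The interval lies above 0 for Pltp in both states and for Cyp4f14 in exercised mice, below 0 for Lrp1 in exercised mice, and includes 0 in all other cases.

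Pltp (probe set 17394297) encodes phospholipid transfer protein, a plasma protein that moves phospholipids, and also alpha-tocopherol, between lipoproteins and from lipoproteins to cells. Its level ran from 5.828 through a median of 6.32 to 7.321 in sedentary control mice and from 6.481 through 6.98 to 7.76 in sedentary vitamin E mice. The 7 lower control mice lay below the lowest vitamin E mouse, while the 3 highest control mice lay within the vitamin E range. After the run, the level went from 5.817 through 6.65 to 7.509 in control mice and from 6.455 through 7.17 to 8.016 in vitamin E mice, again with overlap.

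Group means of Pltp were 6.50 ± 0.53 (SD, n = 10) and 7.06 ± 0.39 (n = 10) at rest, a difference of 0.55 (SE 0.21, 95% interval 0.13 to 0.98), with limma p = 0.0113 and adjusted p = 0.91. Of the 10 sedentary vitamin E mice, 9 lay above the control mean. The means after the run were 6.65 ± 0.53 and 7.16 ± 0.44 (n = 12 each), a difference of 0.51 (SE 0.19, interval 0.12 to 0.89), with limma p = 0.0108 and adjusted p = 0.822, and 11 of 12 vitamin E mice lay above the control mean. These comparisons used different mice. In order of their means, the groups ran from sedentary control through exercised control and sedentary vitamin E to exercised vitamin E; the 2 control groups differed by 0.15 (limma p = 0.454) and the 2 vitamin E groups by 0.11 (limma p = 0.597), both within the spread between mice.

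The difference averaged over both states was 0.53 (SE 0.14, interval 0.25 to 0.82), with limma p = 0.000522 and adjusted p = 0.999, and stood 6th among the 18522 probe sets when ordered by p. Without exercised control mice 3 and 6 it was 0.48 (limma p = 0.00156). In this average, 3 of 8 genes had an unadjusted p under 0.05, beside 4.69% of all probe sets, and 0% of all probe sets passed after adjustment. The diet differences of Pltp at rest and after the run differed by -0.04 (interval -0.62 to 0.53, limma p = 0.875), an interval that also holds changes as large as the diet difference itself.

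Animal numbers in the labels begin with 24 or 27, and each group held mice of both number series. Pltp was higher with vitamin E in both. At rest the difference was 0.38 in series 24 (limma p = 0.181) and 0.73 in series 27 (limma p = 0.0356), and after the run it was 0.39 (limma p = 0.145) and 0.63 (limma p = 0.035). Leaving out exercised control mice 3 and 6, at 5.817 and 6.45, gave a difference of 0.41 after the run (limma p = 0.0446).

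Markers of other liver cells were read beside Pltp. The Kupffer cell and macrophage list, resident macrophages of the liver, was 0.47 higher with vitamin E at rest. All 12 of its genes were above 0, as were 56% of all probe sets. Past the unadjusted threshold were 2 genes, beside 4.77% of all probe sets. Its mean per mouse ranged from 3.49 to 5.13 in control and from 3.81 to 6.04 in vitamin E mice. Sedentary vitamin E mice 1 and 3 were the highest, at 6.04 and 5.82, and the next was mouse 8, at 4.82. The difference without mice 1 and 3 was not worked out. All 12 genes were read in the same mice, so they are not separate results. After the run the list was 0.15 lower with vitamin E with all mice and 0.05 higher without exercised control mice 3 and 6. With the list mean as a covariate, Pltp was 0.64 higher at rest and 0.48 higher after the run (limma p = 0.0045 and 0.0147). Within groups Pltp had a negative r with this list (-0.23), and the list was higher with vitamin E at rest. Adjusting for it therefore enlarges the resting difference in itself. The endothelium list, described next, was not used as a covariate. Sinusoidal endothelium markers were 0.14 higher with vitamin E at rest and 0.00 higher after the run. At rest 6 of 8 were above 0, beside 56% of all probe sets. Past the unadjusted threshold were 2, Stab2 (limma p = 0.0388) and Pecam1 (limma p = 0.0403), beside 4.77% of all probe sets. Across the 44 mice, after subtraction of group means, Pltp had a Pearson r of 0.40 with the endothelium list (Spearman rho 0.34). With the acute-phase list r was -0.37 (rho -0.35), and -0.26 without exercised control mice 3 and 6. With the Kupffer cell and macrophage list r was -0.23 and with the hepatocyte markers -0.15. These values are given as a description. In whole liver, more cells of a type and more RNA per cell cannot be told apart.

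**Figure D2:**
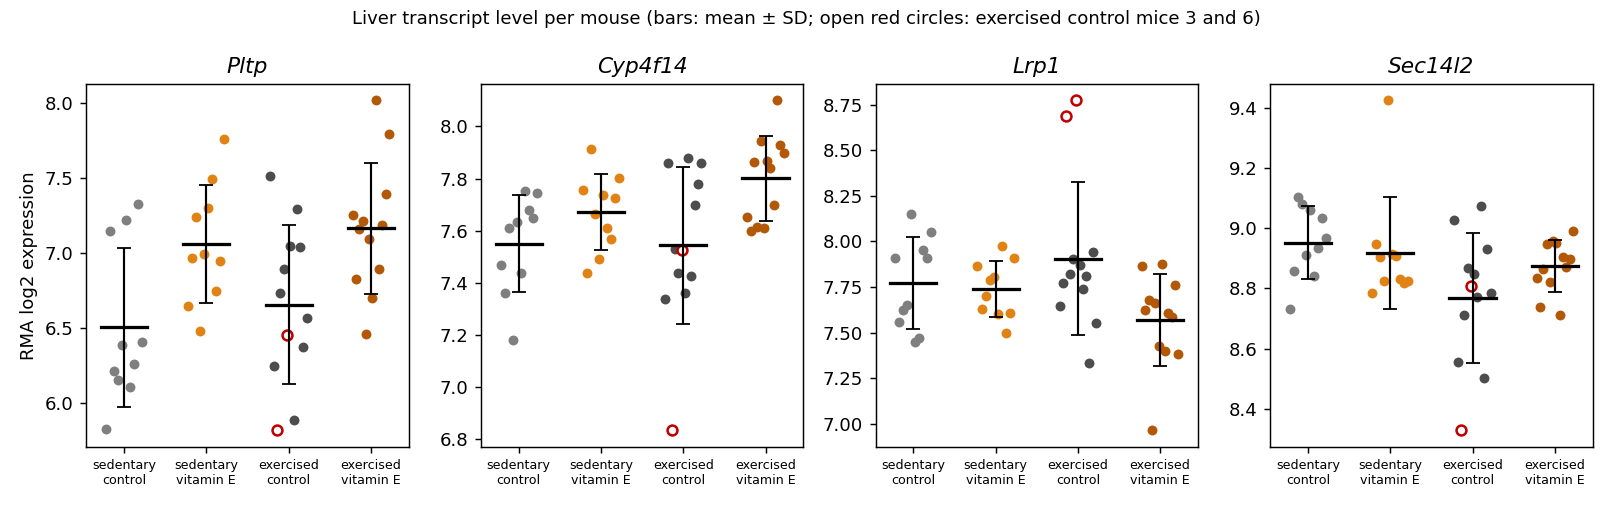
RMA log2 expression of Pltp, Cyp4f14, Lrp1 and Sec14l2 (y axis, separate scale per gene) in each of the 44 mice by group. Points are mice, bars mean ± SD, and open red circles exercised control mice 3 and 6. For Pltp the vitamin E groups centre near 7.06 and 7.16 and the control groups near 6.50 and 6.65, with overlap, and for Lrp1 both circled mice lie above all others.

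Pltp is a textbook target of the oxysterol receptor LXR. Of 11 other LXR targets, all of which passed the filter, none had an unadjusted p under 0.05 in either diet comparison, and their median differences were 0.00 at rest and 0.07 after the run. Abca1 (cholesterol efflux) was 0.06 lower with vitamin E at rest and 0.15 lower after the run (0.00 without exercised control mice 3 and 6). Abcg1 (cholesterol efflux to HDL) was 0.32 higher at rest and 0.25 lower after the run (limma p = 0.106 and 0.16). Without those mice it was 0.11 lower after the run. The group means of Abcg1 were low, between 2.33 and 2.68. Srebf1, the regulator of fatty acid synthesis, was 0.15 and 0.07 higher (limma p = 0.508 and 0.733). LXR itself (Nr1h3) differed by 0.00 at rest and by -0.08 after the run.

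Promoter sequences of the genes with an unadjusted p under 0.05 in a diet comparison are shown, since these are the genes whose diet differences were largest relative to their errors. Each is 300 bases, 250 before and 50 after the annotated start, from RefSeq on GRCm38.p6; 6 of the 8 genes had an entry. The windows are chr2:164857659-164857958 for Pltp, chr17:32917307-32917606 for Cyp4f14, which has 4 annotated starts of which the first is shown, and chr10:127621099-127621398 for Lrp1, all on the minus strand and printed 5′ to 3′ along the gene. Capitals mark the letters of a TATA box (TATAAA), a GC box (GGGCGG, or CCGCCC where it lies on the other strand) and a CCAAT box (CCAAT, or ATTGG on the other strand).
Pltp: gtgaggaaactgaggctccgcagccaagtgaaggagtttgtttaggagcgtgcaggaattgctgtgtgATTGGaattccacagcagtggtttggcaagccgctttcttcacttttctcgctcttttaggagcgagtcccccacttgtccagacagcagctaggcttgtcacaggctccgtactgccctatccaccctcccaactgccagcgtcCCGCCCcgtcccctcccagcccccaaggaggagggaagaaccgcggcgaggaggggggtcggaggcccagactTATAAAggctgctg
Cyp4f14: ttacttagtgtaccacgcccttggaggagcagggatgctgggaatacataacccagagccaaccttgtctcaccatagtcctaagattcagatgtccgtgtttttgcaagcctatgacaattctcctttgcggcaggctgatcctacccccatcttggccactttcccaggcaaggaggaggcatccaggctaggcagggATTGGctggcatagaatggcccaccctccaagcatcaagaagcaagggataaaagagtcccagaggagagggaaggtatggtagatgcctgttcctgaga
Lrp1: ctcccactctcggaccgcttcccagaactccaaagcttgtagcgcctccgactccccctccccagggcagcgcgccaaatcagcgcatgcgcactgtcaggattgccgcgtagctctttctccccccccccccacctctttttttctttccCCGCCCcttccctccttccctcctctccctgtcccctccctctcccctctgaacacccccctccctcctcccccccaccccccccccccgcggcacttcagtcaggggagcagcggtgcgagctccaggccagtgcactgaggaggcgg
Pltp held matches to all 3. Its TATAAA starts at base 287 of the window, among the 50 bases after the annotated start, whereas its GC and CCAAT matches lie before the start. Cyp4f14 held a CCAAT match and Lrp1 a GC match, both before the start. Searched on both strands, TATAAA was present in 13.6% of 32851 promoters of this length, GGGCGG in 35.7% and CCAAT in 37.4%. The nuclear receptor half-site AGGTCA, in 16.3% of promoters, was found in Afm alone among the 6 genes, and the LXR element DR4, taken strictly as a pair of AGGTCA half-sites 4 bases apart, was found in 0.0152% of promoters and in none of the 6. These are matches of letters in a short window and were not tested as binding sites.

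Cyp4f14 (probe set 17343488) encodes the mouse cytochrome P450 that starts the breakdown of tocopherols by hydroxylating the end of their side chain. After the run its level went from 6.834 through a median of 7.53 to 7.878 in control mice and from 7.6 through 7.85 to 8.101 in vitamin E mice. All 12 vitamin E mice lay above the control mean, 4 of them above the highest control mouse. Without exercised control mice 3 and 6 the control mean was 7.617. Exercised vitamin E mice 2, 4 and 6, at 7.6, 7.614 and 7.609, lay below that value. The means were 7.54 ± 0.30 and 7.80 ± 0.16 (SD, n = 12 each), a difference of 0.26 (SE 0.088, 95% interval 0.08 to 0.43), with limma p = 0.00552 and adjusted p = 0.78.

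The Cyp4f14 difference after the run was present in both number series, at 0.29 (limma p = 0.042) and 0.22 (limma p = 0.0293). Exercised control mouse 3 had the lowest level of all, 6.834, and mouse 6 lay at 7.524. Without both mice the difference was 0.18 (limma p = 0.0258), and leaving out any 1 of the 24 mice kept it between 0.19 and 0.29.

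At rest Cyp4f14 ran from 7.18 through 7.62 to 7.751 in control mice and from 7.436 through 7.70 to 7.915 in vitamin E mice, with largely shared ranges. The means were 7.55 ± 0.18 and 7.67 ± 0.15 (n = 10 each), a difference of 0.12 (interval -0.07 to 0.31, limma p = 0.221), and it was 0.21 in series 24 and -0.02 in series 27. The diet differences in the 2 states differed by 0.14 (interval -0.13 to 0.40, limma p = 0.298), so a larger difference after the run was not shown. Averaged over both states, it was 0.19 (limma p = 0.00607, adjusted p = 0.999), and 0.15 without exercised control mice 3 and 6 (limma p = 0.0117).

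Of 13 further genes of hydroxylation and its electron donors, 7 passed the filter. In the diet comparison after the run, 1 of them was past the unadjusted threshold, in the higher direction, beside 5.6% of all probe sets. Cyp3a11, a drug- and sterol-oxidizing P450 and textbook target of the xenobiotic receptor PXR, was 0.33 higher with vitamin E (SE 0.16, limma p = 0.0474, adjusted p = 0.887). Without exercised control mice 3 and 6 that difference was 0.13 (limma p = 0.347), and none of the 7 genes was past the threshold. At rest none was, and Cyp3a11 was 0.23 higher (limma p = 0.209). PXR itself (Nr1i2) differed by 0.04 at rest and -0.05 after the run. The other Cyp4f genes that passed were Cyp4f13, Cyp4f15 and Cyp4f17. They differed by 0.03, 0.01 and -0.24 after the run (limma p = 0.659, 0.953 and 0.257). Without exercised control mice 3 and 6 the differences were -0.04, -0.08 and -0.19. The group means of Cyp4f17 were low, between 2.78 and 3.28. Members of the Cyp4f family are close in sequence, and signal shared between their probe sets was not tested. After the run on the control diet, 2 of the 7 genes were higher and 1 lower at the unadjusted threshold, beside 9.39% of all probe sets. Cyp4f17 was 0.50 and Cyp3a13 0.29 higher (limma p = 0.0295 and 0.0248), and Cyp3a25 0.42 lower (limma p = 0.00663, adjusted p = 0.271). On the vitamin E diet Cyp3a25 was 0.32 lower after the run (limma p = 0.0355), the 1 gene past the threshold there.

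Lrp1 (probe set 17245923) encodes a large receptor of the LDL receptor family that takes up lipoprotein remnants. After the run its level went from 7.335 through a median of 7.82 to 8.774 in control mice and from 6.965 through 7.62 to 7.878 in vitamin E mice, and all 12 vitamin E mice lay below the control mean. The means were 7.90 ± 0.42 and 7.57 ± 0.25 (n = 12 each), a difference of -0.34 (SE 0.12, 95% interval -0.58 to -0.10), with limma p = 0.00723 and adjusted p = 0.822.

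This difference was smaller without 2 mice. Exercised control mice 3 and 6, with the high acute-phase means, had Lrp1 levels of 8.685 and 8.774, whereas the other 10 reached at most 7.943. Without both, the control mean was 7.74 ± 0.18 and the diet difference -0.17 (limma p = 0.0767). Exercised vitamin E mice 1, 7 and 11, at 7.863, 7.878 and 7.759, lay above that mean. Exercised control mice 3 and 6 belong to series 24. The diet difference was -0.56 in that series (limma p = 0.00687) and -0.11 in series 27 (limma p = 0.416).

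All 17 measured acute-phase genes were lower with vitamin E after the run, whereas 45.1% of all probe sets were above 0. Of the 17, 3 were past the unadjusted threshold, beside 5.6% of all probe sets. The difference of the list means was -0.37 with all mice and -0.06 without mice 3 and 6. Without them 12 of the 17 were lower, where 43.3% of all probe sets were above 0. The threshold was then passed by 1 of the 17, beside 4.89% of all probe sets. The mean per mouse ranged from 8.86 to 11.2 in control and from 8.90 to 10.0 in vitamin E mice. Across the 44 mice, Lrp1 had a Pearson r of 0.58 with the acute-phase mean after subtraction of group means (Spearman rho 0.34), and 0.15 without mice 3 and 6, as a description. With that mean as a covariate the diet difference of Lrp1 was -0.22 (limma p = 0.0425).

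At rest Lrp1 was at 7.77 ± 0.25 and 7.74 ± 0.15 (n = 10 each), with ranges of 7.45 to 8.148 and 7.497 to 7.976, a difference of -0.03 and an interval of -0.30 to 0.23. The diet differences in the 2 states differed by -0.30 (interval -0.66 to 0.05, limma p = 0.095), and by -0.14 without mice 3 and 6 (limma p = 0.322). Without exercised control mouse 10, the lowest of its group at 7.335, they differed by -0.35 (limma p = 0.0455). Leaving out the lowest mouse of the higher group enlarges the difference in itself. The average over both states was -0.18 (limma p = 0.0419, adjusted p = 0.999). It was no longer past the unadjusted threshold without mice 3 and 6, at -0.10 (limma p = 0.139), and it was past it in 29 of the 44 fits that left out 1 mouse (highest limma p = 0.0731).

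**Figure D3:**
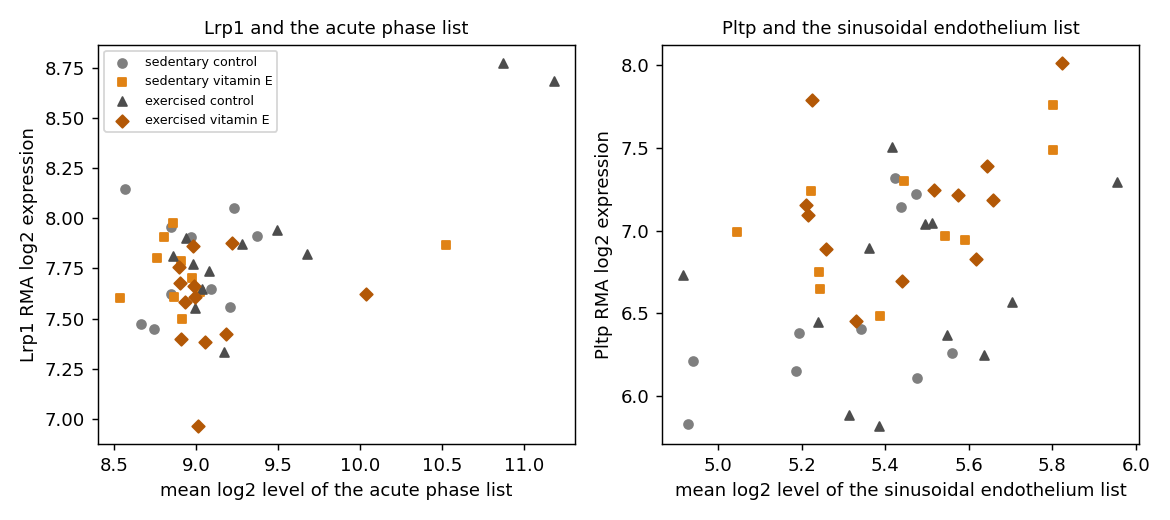
Left, Lrp1 against the mean of the acute-phase list, and right, Pltp against the mean of the sinusoidal endothelium list (both axes RMA log2 values), 1 point per mouse with a symbol per group. On the left, exercised control mice 3 and 6 lie alone at acute-phase means of 11.2 and 10.9 and Lrp1 levels of 8.685 and 8.774.

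Scarb1, the HDL receptor SR-BI, was 0.14 lower with vitamin E after the run (interval -0.31 to 0.03, limma p = 0.116), at 7.97 ± 0.21 in control and 7.84 ± 0.21 in vitamin E mice. Control mice ranged from 7.756 to 8.514 and vitamin E mice from 7.589 to 8.245, and 5 of 12 vitamin E mice lay below the lowest control mouse. Without exercised vitamin E mouse 7, the highest of its group, the difference was -0.17 (limma p = 0.0437). Leaving out the highest mouse of the lower group enlarges the difference in itself. The highest and the lowest control value belonged to exercised control mice 6 and 3, without which the difference was -0.10 (limma p = 0.21). At rest the means were 7.91 ± 0.15 and 7.94 ± 0.23 (n = 10 each), with wholly overlapping ranges.

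Of 10 other uptake and lipoprotein receptor genes, 6 passed the filter, and none had an unadjusted p under 0.05 in either diet comparison. Cd36, a fatty acid and lipoprotein scavenger receptor, was 0.31 higher with vitamin E at rest (limma p = 0.0535) and 0.04 lower after the run (limma p = 0.763). Among 10 genes of lipoprotein secretion, all of which passed, Apoc2, the activator of lipoprotein lipase, was 0.12 lower with vitamin E at rest (limma p = 0.0315, adjusted p = 1) and none was past that threshold after the run. Mttp, which loads lipid onto nascent lipoproteins, was 0.12 higher after the run (limma p = 0.0504), and 0.07 higher without exercised control mice 3 and 6 (limma p = 0.228).

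Afm encodes afamin, a plasma glycoprotein of the albumin family that binds vitamin E. Its group means lay between 8.34 and 8.40 and its values in single mice between 8.02 and 8.681, and no comparison had an unadjusted p under 0.05. The lowest value was that of exercised control mouse 3.

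Ttpa (probe set 17412092) was the gene nearest to a difference between exercised and sedentary mice in the higher direction. In control mice it ran from 7.891 through a median of 8.06 to 8.251 at rest and from 7.94 through 8.18 to 8.41 after the run, and 10 of 12 exercised mice lay above the sedentary mean, 5 of them above every sedentary mouse. The means were 8.06 ± 0.11 (n = 10) and 8.19 ± 0.15 (n = 12), a difference of 0.13 (interval -0.01 to 0.26), with limma p = 0.0592 and adjusted p = 0.55; a permutation test over the mice, two-sided with 100000 resamples, gave p = 0.035. Leaving out 1 mouse at a time gave limma p between 0.0274 and 0.115. On the vitamin E diet the means were 8.12 ± 0.15 and 8.16 ± 0.15. Over both diets the difference was 0.08 (limma p = 0.0845).

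Sec14l2 (probe set 17259937) encodes supernatant protein factor, also called tocopherol-associated protein, a lipid-binding protein of the same fold family as Ttpa. In control mice its level ran from 8.733 through a median of 8.95 to 9.104 at rest and from 8.328 through 8.80 to 9.076 after the run, and 10 of 12 exercised mice lay below the sedentary mean. The means were 8.95 ± 0.12 (n = 10) and 8.77 ± 0.22 (n = 12), a difference of -0.18 (SE 0.073, 95% interval -0.33 to -0.04), with limma p = 0.015 and adjusted p = 0.36. It was the 1 of 8 genes with an unadjusted p under 0.05 in this comparison, where 9.39% of all probe sets were past that threshold, and 0.68% after adjustment.

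The Sec14l2 difference was -0.14 without exercised control mice 3 and 6 (limma p = 0.0464), and -0.24 and -0.13 within the number series (limma p = 0.0567 and 0.19). With the acute-phase mean as a covariate it was -0.12 (limma p = 0.0998). On the vitamin E diet Sec14l2 was 8.92 ± 0.19 at rest and 8.87 ± 0.09 after the run, and none of the 8 genes had an unadjusted p under 0.05 there, beside 6.16% of all probe sets, and 0.232% after adjustment. The run differences on the 2 diets differed by 0.14 for Sec14l2 (interval -0.07 to 0.35, limma p = 0.181), and in this interaction none of the 8 genes was past the unadjusted threshold, beside 5.49% of all probe sets and 0% after adjustment. Over both diets, Sec14l2 was 0.11 lower after the run (95% interval -0.22 to -0.01, limma p = 0.0315, adjusted p = 0.455) and was the 1 of 8 genes past the unadjusted threshold, beside 9.26% of all probe sets, and 1.19% after adjustment. Without exercised control mice 3 and 6 that value was -0.09 (limma p = 0.0593), and the threshold was also missed without exercised control mouse 3, exercised control mouse 10 or sedentary vitamin E mouse 5 (highest limma p = 0.069). The comparisons with sedentary or exercised control mice share those mice with the diet comparisons.

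**Figure D4:**
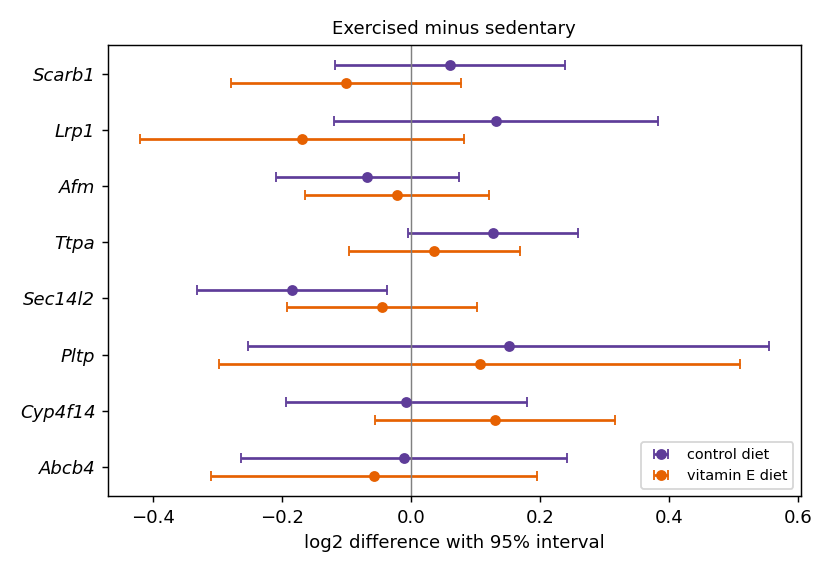
Difference between exercised and sedentary mice (x axis, log2, positive where higher after the run) for each of the 8 genes, on the control and on the vitamin E diet. Points are limma estimates and bars their 95% intervals. The interval for Sec14l2 on the control diet, -0.33 to -0.04, is the one that does not include 0.

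Of 11 other genes of intracellular lipid transfer, 7 passed the filter and none had an unadjusted p under 0.05 in the diet or run comparisons within a state or diet. Over both diets 1 of the 7 was higher after the run at that threshold, beside 9.26% of all probe sets. On the control diet without exercised control mice 3 and 6, 1 was too, beside 9.11%. Sec14l4, a relative of Sec14l2, was 0.17 higher after the run on the control diet (limma p = 0.0564) and 0.12 higher on the vitamin E diet (limma p = 0.181). Ttpal, a relative of Ttpa, was 0.22 higher with vitamin E at rest and 0.21 lower after the run (limma p = 0.33 and 0.308). Sec14l1 was 0.18 lower with vitamin E after the run (limma p = 0.0886). Both had low group means, between 2.62 and 2.87 for Ttpal and between 3.29 and 3.48 for Sec14l1.

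Abcb4 encodes the phospholipid floppase of the bile canaliculus (MDR2 in the mouse), which delivers phosphatidylcholine to bile and is needed for biliary secretion of alpha-tocopherol. Its means were 7.26 ± 0.22 and 7.31 ± 0.10 at rest, with control feed first and vitamin E second, and 7.25 ± 0.50 and 7.25 ± 0.13 after the run. The large spread of the exercised control group came from mouse 3, at 5.83, with the next lowest mouse at 6.946 and the highest at 7.618. Without that mouse the group was at 7.38 ± 0.23 (n = 11) and the diet difference after the run moved from 0.00 to -0.13 (limma p = 0.113).

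Of 10 other efflux and biliary export genes, 9 passed the filter and none had an unadjusted p under 0.05 in either diet comparison. In the run comparisons, Abcb1a, a xenobiotic exporter, was 0.53 higher after the run in control mice (limma p = 0.0312, adjusted p = 0.465), and Abcb11, the bile salt export pump, was 0.16 lower after the run in vitamin E mice (limma p = 0.0384, adjusted p = 0.768).

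**Figure D5:**
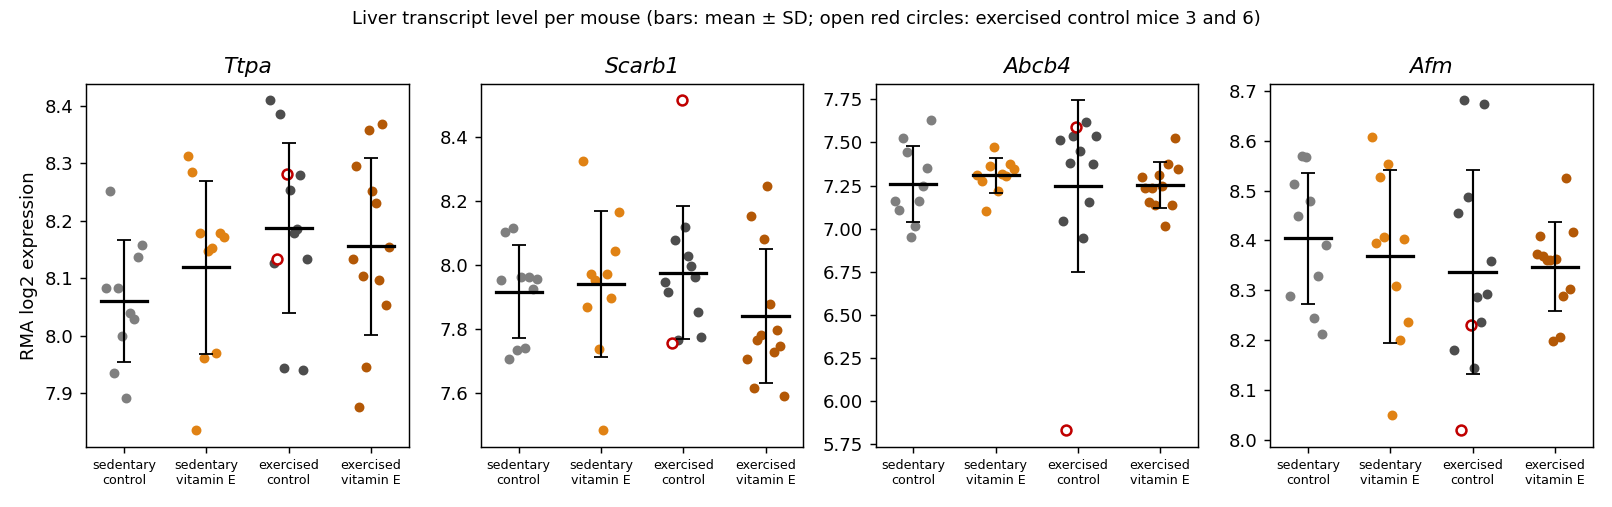
RMA log2 expression of Ttpa, Scarb1, Abcb4 and Afm (y axis, separate scale per gene) in each of the 44 mice by group. Points are mice, bars mean ± SD, and open red circles exercised control mice 3 and 6. All 4 groups overlap for each gene, and exercised control mouse 3 lies apart for Abcb4, at 5.83.

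The 8 genes varied between mice in different ways. After subtraction of group means, the closest pair was Sec14l2 and Abcb4, with a Pearson r of 0.63 over the 44 mice (0.52 without exercised control mice 3 and 6), followed by Ttpa and Scarb1 with 0.51 (0.51 without them). Pltp and Lrp1 had the lowest, -0.30 (-0.17 without them). Among all filtered probe sets with 1 symbol, Pltp was most like Eci1 (r = 0.63, and 0.60 without those mice) and Acat1 (0.60, 0.55), mitochondrial enzymes of fatty acid and ketone metabolism, and Retsat (0.61, 0.59), a retinol saturase. Lrp1 was most like Fn1 (fibronectin, r = 0.80, and 0.68 without them), Parp14 (0.74, 0.66) and St6gal1 (0.74, 0.51). Both Ttpa (r = 0.66 with all mice and without them) and Scarb1 (0.73, 0.72) were most like Aass, an enzyme of lysine breakdown. The likeness of Abcb4 to Ephx2, a soluble epoxide hydrolase, was 0.77 and 0.54 without them. Cyp4f14 was most like Wee1 (r = 0.70, and 0.56 without them), Sec14l2 like Tcea3 (0.66, 0.55) and Afm like the mitochondrial gene ND3 (0.68, 0.74). These values share arrays and are descriptions only.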

How the data were processed

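The authors ran RMA in Affymetrix Expression Console and deposited 1 log2 value per probe set and mouse. The genome build of the array annotation was not given in the sources used here. RNA was extracted from whole liver with a fibrous tissue kit and amplified before labelling. The values were used as deposited, without further normalization. The study's own filter, a group mean of the linear values over 4 for 1 group or more, left 18522 of 41345 probe sets.

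A single limma model (version 3.58.1, R 4.3.3) held all 44 mice with 1 coefficient per group and empirical Bayes two-sided tests, and p-values were adjusted by Benjamini-Hochberg over the kept probe sets. A call needed an adjusted p under 0.05, and the unadjusted threshold is 0.05 too. Permutation tests used 100000 resamples (Python 3.11.15). The procedure was tested on simulated data. The labels number the mice as biological replicates.

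The 8 genes, the gene lists and the tests were chosen with earlier results of these data known, so the difference in Pltp was already known. Named beside the 8 genes were up to 4 genes per pathway list with the smallest p and, per gene, up to 3 probe sets most like it. Alternatives were other filters, normalizations, fits, covariates, tests, number series and sets of mice. Values of the gene lists without exercised control mice 3 and 6 were added after seeing the data.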

Additional observations from a re-analysis of the deposited data

Results flagged for a closer look

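Sec14l2 in sedentary vitamin E mouse 5 was 9.427, whereas the next highest of the 10 mice was at 8.948, and the gap took up 0.747 of the group's range, above Dixon's 95% critical value for 10 samples. Of 16 groups of 10 sedentary mice examined in this way, 1 was past its critical value, and chance passes about 1 in 20. The groups of 12 exercised mice were not examined in this way. Among them is Abcb4, with exercised control mouse 3 at 5.83 and the next lowest at 6.946. Without sedentary vitamin E mouse 5, Sec14l2 was 0.09 lower with vitamin E at rest (limma p = 0.198). The difference between exercised and sedentary mice on the vitamin E diet moved from -0.04 to 0.01. The run difference over both diets was then -0.09 (limma p = 0.069), and the interaction of diet and run moved from 0.14 to 0.20 (limma p = 0.0394). The cause of the high value was not tested.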

How the results depend on the processing

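No gene of the 8 passed an adjusted p under 0.05 in any comparison and setting, and the lowest such value was 0.23, for Sec14l2 after the run on the control diet with median centring. Counts at an unadjusted p under 0.05 moved as follows. The sedentary diet count of 1 was 0 in number series 24. The run count on the control diet, 1, was 2 with a mean log2 filter above 5, with trend and robust variances, and in the permutation and rank-sum tests, and 0 in either number series and with the acute-phase covariate. The diet count after the run, 3, was 2 in either series and without exercised control mice 3 and 6. The interaction count of 0 was 1 with median centring and in series 24. The diet count over both states, 3, was 1 in either series, and the run count over both diets, 1, was 0 with array weights, in either series, without exercised control mice 3 and 6 and with the acute-phase covariate. Leaving out 1 mouse at a time, these 6 counts ranged from 1 to 1, 1 to 2, 3 to 4, 0 to 1, 2 to 3 and 0 to 2.

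Some directions turned. Cyp4f14 at rest was -0.017 in series 27, and Lrp1 at rest 0.035 in series 24 and between -0.070 and 0.0073 without 1 mouse. The Pltp interaction was 0.033 with median centring, 0.016 in series 24 and between -0.14 and 0.033 without 1 mouse, and the Lrp1 interaction, -0.30 with all mice, was 0.021 in series 27. The run difference of Lrp1 on the control diet, 0.13 (limma p = 0.295), was -0.14 in series 27 and -0.03 both without exercised control mice 3 and 6 and with the acute-phase covariate. Abcb4 after the run was -0.067 with array weights, -0.072 in series 27, -0.10 without exercised control mice 3 and 6, -0.069 with the acute-phase covariate, and between -0.13 and 0.037 without 1 mouse.

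Same-numbered mice of different groups had a mean correlation of 0.021 (lowest -0.065), against -0.0019 (lowest -0.10) for mice with different replicate numbers. Of the 44 mice, 12 correlated best with their own number. How many would do so by chance was not worked out, so these values do not settle whether the replicate numbers pair the mice. Same-numbered mice were also mostly of the same number series. Mice of different groups had a mean correlation of 0.013 within a series and -0.013 between series. With the replicate number as a block, the run counts on the control diet and over both diets were 2, since Ttpa had limma p = 0.0108 and 0.0141, and the Lrp1 average over both states had limma p = 0.0548. Averaging all probe sets of a gene gave no other value, since each gene had 1. The number of arrays limits what can be detected.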

Other observations

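Besides exercised control mice 3 and 6, the highest means of the acute-phase list belonged to sedentary vitamin E mouse 1, at 10.5, and exercised vitamin E mouse 2, at 10.0. Scarb1 was 8.325 in the former, the highest value of its group, and 8.152 in the latter, where the highest mouse was at 8.245. Sec14l2 was 8.786 and 8.739 in these mice, the lowest and the second lowest value of their groups, and Lrp1 was 7.865 and 7.624, within the range of the other mice of each group. Across the 44 mice, Scarb1 had a Pearson r of 0.50 with the acute-phase mean after subtraction of group means (Spearman rho 0.42), and 0.63 without exercised control mice 3 and 6. Sec14l2 had an r of -0.40 with the acute-phase mean (Spearman rho -0.15), and -0.25 without those 2 mice. With the mean of the hepatocyte markers its r was -0.53 (Spearman rho -0.56). These are values with no test.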
